A study of Mus musculus with 11 samples.

Results

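The actin contractile genes described here are 10 of the 23288 gene symbols in the expression table of a study of the Polycomb protein CBX6 in mouse embryonic stem cells (ESCs). They are the transgelin genes Tagln and Tagln2, the muscle actins Acta1, Acta2 and Actg2, the calponins Cnn1 and Cnn2, the tropomyosins Tpm1 and Tpm2, and the myosin light chain Myl9. The group was chosen by name around Tagln with the contrast of shCbx6 and shCtl in these libraries already known, so the expression of its members is given as a description and without a test.

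The RNA-seq libraries came from wild-type E14Tg2A ESCs, grown without feeders on gelatin in medium with serum and LIF. The cells were infected with a lentiviral pLKO vector carrying a control hairpin (shCtl, 2 libraries) or a hairpin against Cbx6 (shCbx6, 2 libraries) and selected with puromycin, so all 4 libraries carry a vector and the drug selection. The labels do not say which Cbx6 hairpin was used, whether it was the same in both libraries, or whether replicates were separate infections, so p-values measure only the spread between these libraries. Peak lists came from 2 anti-HA ChIP-seq replicates of ESCs whose endogenous CBX6 carries a 3×HA tag, 1 CBX7 ChIP-seq and 1 RING1B ChIP-seq. Neither the anti-HA ChIP of parental cells nor the IgG ChIPs were used here. The lists and the table give no read counts, so sequencing depth is unknown.

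Tagln, calponin and tropomyosin are proteins that bind along actin filaments, and myosin light chains set the activity of the myosin that pulls on them. In smooth muscle, these genes form the contractile program, and many are activated by serum response factor (SRF) with cofactors of the myocardin family. Of these cofactors, Mkl1 and Mkl2 move to the nucleus when free actin monomers are used up by filament growth. SRF binds a short A/T-rich motif, the CArG box. CBX6 and CBX7 are chromobox subunits of Polycomb repressive complex 1, of which RING1B is the catalytic core.

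The upstream sequences are shown because the peaks and the group membership both bear on the promoters. The RefSeq promoter table (GRCm38.p6, from 250 bases before to 50 bases after the start) matched 8 of the 10 genes, all but Tagln and Actg2. A CArG box was searched as CCWWWWWWGG, with W for A or T, a pattern that reads the same on both strands. Boxes that depart from this pattern were not counted. Of these 8 promoters, 3 hold 1 match: Myl9, Acta1 and Cnn2. Over all 32851 promoters of the table the share is 1.63%. The 250 bases upstream of these 3 starts follow, 5′ to 3′ on the gene's strand, with the CArG box in capitals. They lie at chr2:156775214-156775463 (plus strand) for Myl9, chr8:123894776-123895025 (minus strand) for Acta1 and chr10:79988350-79988599 (plus strand) for Cnn2.
Myl9: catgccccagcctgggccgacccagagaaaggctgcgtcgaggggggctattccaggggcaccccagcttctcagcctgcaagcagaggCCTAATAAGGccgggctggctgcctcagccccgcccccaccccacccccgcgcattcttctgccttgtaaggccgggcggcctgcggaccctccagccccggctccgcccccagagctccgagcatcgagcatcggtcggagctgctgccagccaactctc
Acta1: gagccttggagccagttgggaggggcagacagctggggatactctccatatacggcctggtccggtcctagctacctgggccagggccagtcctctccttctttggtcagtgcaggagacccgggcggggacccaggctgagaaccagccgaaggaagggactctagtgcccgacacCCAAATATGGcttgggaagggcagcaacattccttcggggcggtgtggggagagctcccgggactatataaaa
Cnn2: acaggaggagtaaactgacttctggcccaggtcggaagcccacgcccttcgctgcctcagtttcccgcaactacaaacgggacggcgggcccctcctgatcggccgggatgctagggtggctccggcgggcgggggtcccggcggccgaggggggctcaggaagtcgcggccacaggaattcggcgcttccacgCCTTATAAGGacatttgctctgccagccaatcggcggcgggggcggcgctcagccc
The first base of the box lies 161 bases before the start in Myl9, 73 in Acta1 and 56 in Cnn2. A match is a run of letters and not a measured SRF site. Acta2, Cnn1, Tpm1, Tpm2 and Tagln2 have no match in this window.

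Tpm1 was the member with peaks of all 4 lists over its start, and CpG-rich promoters are a common place for Polycomb complexes in ESCs. The 250 bases before its annotated start, chr9:66897214-66897463 on the mm9 build (minus strand), hold 20 CpG dinucleotides, printed in capitals, and 64.8% G and C.
Tpm1: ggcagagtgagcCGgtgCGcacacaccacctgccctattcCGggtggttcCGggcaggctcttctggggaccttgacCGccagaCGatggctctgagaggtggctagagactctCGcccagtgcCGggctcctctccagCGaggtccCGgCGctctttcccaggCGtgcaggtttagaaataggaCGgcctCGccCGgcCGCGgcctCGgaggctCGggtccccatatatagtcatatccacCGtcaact
In the 300-base promoters of the RefSeq table, CpG dinucleotides numbered 33 in Cnn2, 27 in Tpm1, 20 in Tpm2 and Myl9, 18 in Tagln2, 12 in Acta1, and 6 in Acta2 and Cnn1, against a median of 7 over all promoters.

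Cbx6, the targeted gene, was measured in FPKM, which are fragments scaled to transcript length and to all mapped fragments of a library. The shCtl libraries held 17.4 and 14.9 FPKM of Cbx6, shCbx6 replicate 1 held 9.53 FPKM and shCbx6 replicate 2 held 5.40 FPKM. The groups did not overlap, and the loss was 1.69-fold in shCbx6 replicate 1 and 2.99-fold in shCbx6 replicate 2 relative to the shCtl mean. On log2(FPKM + 1) the mean difference was -1.06 with a standard error of 0.26, and limma gave a Benjamini-Hochberg adjusted p of 0.247. Because the shCbx6 libraries differ in residual Cbx6, each one is described separately below.

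Pluripotency markers were present in all 4 libraries, and most were lower in shCbx6. The summed FPKM of 10 such markers lay between 5800 and 8396, most of it from Dppa5a and Pou5f1, and 8 of the 10 were lower in both shCbx6 libraries than in both shCtl libraries, a pattern found in 24.4% of the 11592 genes tested. Tbx3 was 2.60-fold and 4.95-fold below the shCtl mean in shCbx6 replicates 1 and 2, and Tfcp2l1 1.70-fold and 3.41-fold. Utf1 was higher, at 136 and 191 FPKM in shCtl against 195 and 254 FPKM in shCbx6, and the groups overlapped for Sox2. Klf4, a naive pluripotency factor, was at 91.1 and 96.7 FPKM in shCtl and at 36.7 and 28.0 FPKM in shCbx6 (log2 difference -1.52, limma adjusted p = 0.0842). Summed levels of 10 fibroblast markers were 2.82 and 2.60 FPKM in shCtl against 2.01 and 6.14 FPKM in shCbx6, with 9 of the 10 under 1 FPKM in every library. Thy1 gave 3.82 of the 6.14 FPKM. Lum was at 0 in all libraries, while Col1a1, Col1a2, Col3a1 and Dcn were higher in both shCbx6 libraries than in both shCtl libraries at low levels, with Col1a1 at 0.0336 and 0.0398 FPKM in shCtl against 0.0984 and 0.549 FPKM in shCbx6. For 10 cardiac and skeletal muscle markers the sums were 6.27 and 2.74 FPKM in shCtl against 5.10 and 4.01 FPKM in shCbx6, and 8 of the 10 stayed under 1 FPKM throughout. Tnni3 gave 4.24, 1.35, 4.03 and 1.56 FPKM of these sums, while Myh6 and Myh7 were higher and Myl4 and Ckm lower in both shCbx6 libraries than in both shCtl libraries. The 10 primitive endoderm markers summed to 38.3 and 43.4 FPKM in shCtl, 24.2 in shCbx6 replicate 1 and 74.6 in shCbx6 replicate 2, where Sparc alone gave 61.0 FPKM. Lama1 of the same list was 3.32-fold and 4.72-fold below the shCtl mean. Of the 10 markers, 3 were higher and 3 lower in both shCbx6 libraries than in both shCtl libraries, beside 18.9% and 24.4% of the genes tested. Only 5 of these 10 markers were themselves high enough to be tested. In bulk RNA, more cells of a type and more RNA per cell cannot be told apart, and the part of other cell types in the values below was not tested.

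Of the 10 members, 9 reached a mean of 1 FPKM in at least 1 group, and Tagln, Cnn1 and Myl9 did so through the shCbx6 libraries alone. In shCbx6 replicate 1, 6 members were at least 1.5-fold above the shCtl mean (Tagln, Myl9, Cnn1, Tpm1, Cnn2 and Acta2), and 1 was at least 1.5-fold below it (Tagln2). In shCbx6 replicate 2, 8 members were at least 1.5-fold above, the same 6 with Acta1 and Tpm2. The background over all 11592 genes tested was 5.74% above and 7.41% below in replicate 1, 11.2% above in replicate 2 and 3.94% above in both. In 8 members both shCbx6 libraries were above both shCtl libraries, a pattern found in 18.9% of all genes, and in none were both below (24.4% of all genes). The rule used this contrast, so these counts and the member median that follows describe the choice of members. The median log2 difference of the 9 members was 1.29 on log2(FPKM + 1), and that of all genes was -0.01.

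**Figure D1:**
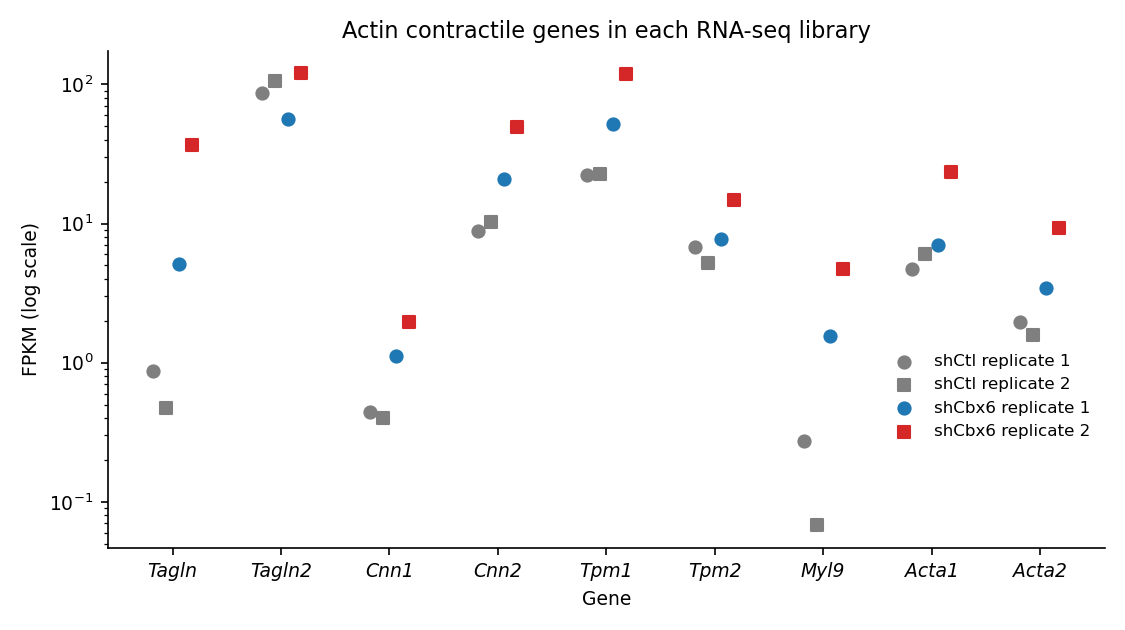
FPKM of 9 members (log axis) in each of the 4 RNA-seq libraries, 1 point per library. Both shCbx6 points lie above both shCtl points in every gene but Tagln2, and shCbx6 replicate 2 is the highest point of each gene. Actg2 is left out because it is listed at 0 in 2 libraries.

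The transgelins went apart. Tagln (chr9:45737711-45744141 on mm9, minus strand), an early smooth muscle marker that bundles actin, was at 0.874 and 0.475 FPKM in shCtl, at 5.12 FPKM in shCbx6 replicate 1 and at 37.0 FPKM in shCbx6 replicate 2. The groups did not overlap, and the shCbx6 libraries were 7.59-fold and 54.8-fold above the shCtl mean. Among all 11592 genes tested, these ratios ranked 44th in replicate 1 and 28th in replicate 2. Tagln was chosen with this contrast known and passed the filter only through shCbx6, so the ranks describe that choice. The log2(FPKM + 1) difference was 3.20 with a standard error of 0.83, and the shCbx6 libraries differed from each other by 7.22-fold, the widest gap among the members. Pcsk7, a protease gene that overlaps Tagln on the other strand, was at 3.89 and 3.41 FPKM in shCtl against 3.84 and 3.42 FPKM in shCbx6, a log2 difference of -0.01. Whether reads were counted by strand is not stated.

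Tagln2 (chr1:174430178-174437511, plus strand), the transgelin of non-muscle cells, was abundant at 86.4 and 106 FPKM in shCtl. It was at 56.9 FPKM in shCbx6 replicate 1, 1.69-fold below the shCtl mean, and at 120.2 FPKM in shCbx6 replicate 2, 1.25-fold above it. The shCtl values lie between the shCbx6 values, so the groups overlapped and the mean log2 difference of -0.20 (standard error 0.37) was within the spread. Tagln2 was the only member without separated groups among the 9 with a level to compare.

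The calponins bind actin and slow the myosin motor. Cnn1 (chr9:21903725-21914074, plus strand), the smooth muscle form, was at 0.440 and 0.401 FPKM in shCtl and at 1.12 and 1.97 FPKM in shCbx6. The groups were separate, with ratios of 2.65 and 4.68 to the shCtl mean at a low level. Cnn2 (chr10:79451329-79458807, plus strand), the form of many non-muscle cells, was at 8.90 and 10.3 FPKM in shCtl and at 21.0 and 49.7 FPKM in shCbx6. Its groups were separate too, at ratios of 2.19 and 5.17, and the log2 difference of 1.66 (standard error 0.39) stood beside 0.82 (standard error 0.24) for Cnn1.

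Tropomyosins lie in the groove of the actin filament and set which proteins reach it. Tpm1 (chr9:66870397-66897213, minus strand) was the most abundant member after Tagln2, at 22.4 and 22.6 FPKM in shCtl and at 51.7 and 118 FPKM in shCbx6. The control libraries were 1.01-fold apart, and the shCbx6 libraries stood 2.30-fold and 5.27-fold above their mean (log2 difference 1.76, standard error 0.39). Tpm2 (chr4:43527583-43536637, minus strand), a muscle-enriched form, was at 6.75 and 5.23 FPKM in shCtl and at 7.72 and 14.8 FPKM in shCbx6. Its groups were separated narrowly by replicate 1, at 1.29-fold, and by 2.47-fold in replicate 2.

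Myl9 (chr2:156601156-156607394, plus strand), the regulatory light chain of smooth muscle and non-muscle myosin II, was at 0.275 and 0.0679 FPKM in shCtl and at 1.55 and 4.70 FPKM in shCbx6. Its ratios, 9.02 and 27.4, were the highest of the members in replicate 1 and the second highest in replicate 2, but the ratio of shCtl replicate 2 to replicate 1 was itself 0.247. At such low control levels the ratio is imprecise, and the log2(FPKM + 1) difference was 1.71 with a standard error of 0.41.

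The muscle actins are nearly identical in sequence, and the authors kept reads that map to 1 place, so how reads were divided among them is uncertain. Acta1 also overlaps Gm20388 on the other strand. Acta2 (chr19:34315580-34329826, minus strand), the smooth muscle alpha actin, was at 1.95 and 1.59 FPKM in shCtl and at 3.46 and 9.31 FPKM in shCbx6, ratios of 1.95 and 5.26. Acta1 (chr8:126415669-126418651, minus strand), the skeletal alpha actin, was at 4.75 and 6.05 FPKM in shCtl and at 7.002 and 23.4 FPKM in shCbx6, ratios of 1.30 and 4.32. Both had separate groups, but Acta1 was only just separate in replicate 1. Actg2 (chr6:83462899-83486259, minus strand), the enteric smooth muscle actin, was listed at 0.0272 and 0 FPKM in shCtl and at 0 and 0.0482 FPKM in shCbx6. With 1 library of each group at 0, no ratio was formed. Both group means were under 1 FPKM, so the gene was not tested.

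Within the shCtl mean the order of FPKM, which is per length of transcript, was Tagln2, Tpm1, Cnn2, Tpm2, Acta1, Acta2, Tagln, Cnn1, Myl9 and Actg2. Of the neighbours in this order, Tpm2 and Acta1 overlapped in their shCtl values (5.23 to 6.75 and 4.75 to 6.05 FPKM). The other pairs of neighbours did not overlap, and with 2 libraries their order rests on those values alone. In shCbx6 replicate 2 Tagln stood behind Tagln2, Tpm1 and Cnn2 and ahead of Acta1, at 37.0 against 23.4 FPKM.

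The libraries of the shCbx6 group were themselves far apart. All 9 members with a comparable level were at least 1.5-fold higher in shCbx6 replicate 2 than in replicate 1, from 1.76-fold for Cnn1 and 1.91-fold for Tpm2 to 3.04-fold for Myl9, 3.34-fold for Acta1 and 7.22-fold for Tagln. Over all genes the share was 10.4%. The members were chosen with the shCbx6 values known, and Tagln, Cnn1 and Myl9 passed the filter only through them. The count of members is therefore in part a product of that choice. Between the shCtl libraries, none of the 9 was at least 1.5-fold higher in replicate 2 (5.71% of all genes), and 2 were at least 1.5-fold higher in replicate 1 (4.66% of all genes), Tagln by 1.84-fold and Myl9 by 4.05-fold. The library with more of the contractile transcripts was also the one with less Cbx6, with the higher fibroblast and primitive endoderm marker sums, and with the lower ESC and the lower cardiac and skeletal muscle marker sums. Of the marker genes, 8 of 10 fibroblast, 9 of 10 cardiac and skeletal muscle, 7 of 10 primitive endoderm and 3 of 10 ESC markers were higher by any amount in shCbx6 replicate 2 than in replicate 1, as were all 9 members and 63.3% of the genes tested. Most of the fibroblast and of the cardiac and skeletal muscle markers were too low to be tested. With 1 library at each level, these differences cannot be told apart from any other difference between the libraries.

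**Figure D2:**
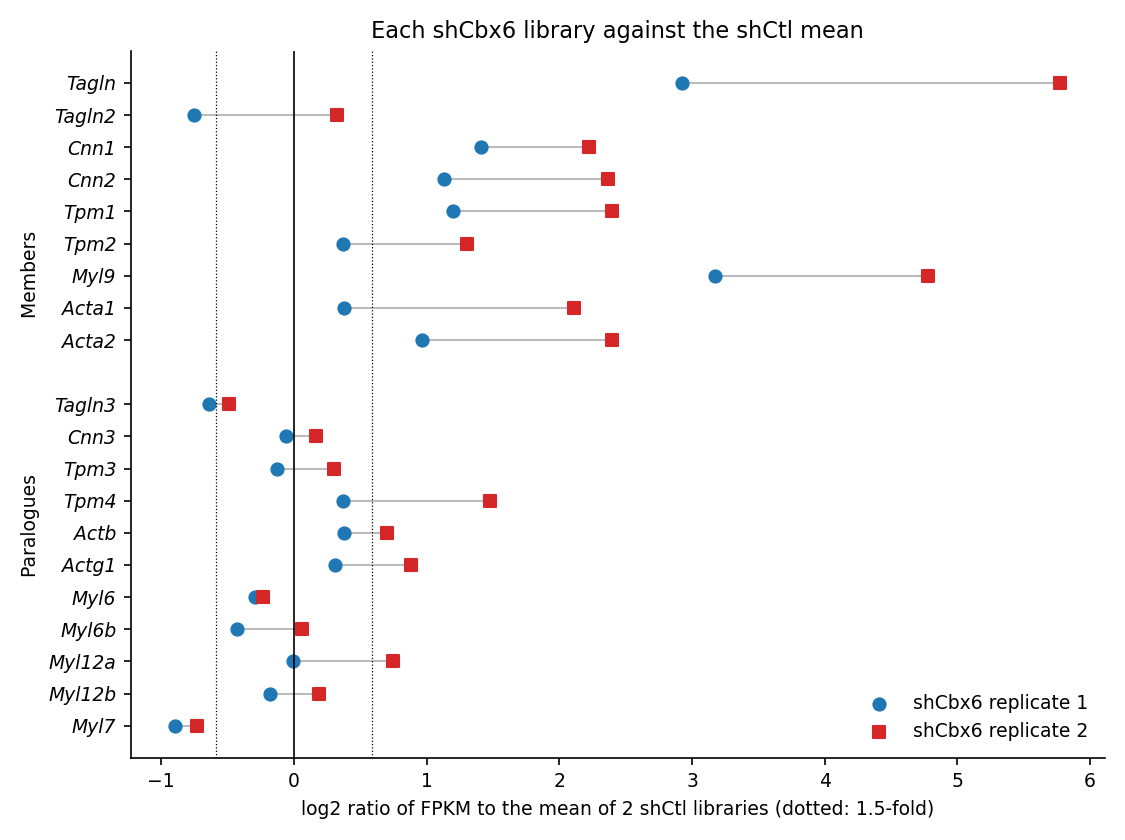
log2 ratio of FPKM in shCbx6 replicate 1 (circles) and replicate 2 (squares) to the mean of the 2 shCtl libraries, for 9 members (top) and 11 paralogues (bottom), with dotted lines at 1.5-fold. Tagln and Myl9 have the highest ratios, Tagln2 is the member below 0 in replicate 1, and of the paralogues none passes 1.5-fold upward in both libraries.

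The closest relatives of the members, were listed as 12 paralogues, most of them isoforms of non-muscle cells. Of 11 tested, none passed an adjusted p of 0.05 by limma (2 had an unadjusted p under 0.05), and their median log2 difference was 0.05. None was at least 1.5-fold above the shCtl mean in shCbx6 replicate 1, and 4 were in replicate 2 (Tpm4, Actg1, Myl12a and Actb), beside 5.74% and 11.2% of all genes. Tpm4, a tropomyosin of the non-muscle cytoskeleton, was at 21.8 and 23.9 FPKM in shCtl and at 29.5 and 63.5 FPKM in shCbx6 (log2 difference 0.90, limma adjusted p = 0.427). Actg1, the cytoplasmic gamma actin, was at 784 and 1012 FPKM in shCtl and at 1113 and 1657 FPKM in shCbx6 (0.61, adjusted p = 0.482). The groups were separate for both genes, but the differences did not pass the test.

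At the other end stood Myl7, the atrial light chain, with a log2 difference of -0.65 (adjusted p = 0.263), and Tagln3, the neuronal transgelin, with -0.41 (adjusted p = 0.456). Both had lower values in both shCbx6 libraries than in both shCtl libraries. Actc1, the cardiac actin, was listed at 0 in both shCtl libraries and stayed under 0.1 FPKM in shCbx6. Across all genes, limma called 11 of 11592 (0.0949%), 5 higher and 6 lower, and 1352 had an unadjusted p under 0.05.

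Over 4 lists of related genes (the paralogues, SRF cofactors and regulators, other actin cytoskeleton targets of SRF, and late smooth muscle genes), limma called 0 of 36 genes tested at an adjusted p of 0.05. At an unadjusted p under 0.05 there were 10, of which 8 were higher and 2 lower, or 27.8% against 11.7% of all genes. These lists were written with earlier results of the same libraries known.

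The other cytoskeletal targets of SRF held most of these, with 7 of 13 tested at an unadjusted p under 0.05 and 4 at least 1.5-fold higher in both shCbx6 libraries. Over all genes tested these shares were 11.7% and 3.94%. Cyr61, a matricellular protein induced by SRF and YAP, was at 1.14 and 1.34 FPKM in shCtl and at 4.75 and 23.5 FPKM in shCbx6 (log2 difference 2.41, limma adjusted p = 0.279). Ctgf, a protein of the same family, was at 4.22 and 4.04 FPKM in shCtl and at 13.8 and 22.7 FPKM in shCbx6 (1.87, adjusted p = 0.0976). Neither passed the threshold, although the shCbx6 libraries stood 3.82-fold and 18.9-fold above the shCtl mean for Cyr61 and 3.34-fold and 5.50-fold above it for Ctgf. The others of the 4 were Lima1 and the focal adhesion protein Zyx, chosen here after their values were seen, with log2 differences of 0.71 (adjusted p = 0.218) and 1.34 (adjusted p = 0.389). Fblim1, a filamin binding adaptor, was the lowest of the list at -0.43 (adjusted p = 0.393), and the median of the list was 0.35.

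Srf itself was at 6.997 and 7.70 FPKM in shCtl and at 9.10 and 12.7 FPKM in shCbx6 (log2 difference 0.49, limma adjusted p = 0.411). The LIM protein genes Fhl1 and Csrp2, at 0.52 (adjusted p = 0.571) and -0.44 (adjusted p = 0.489), were the other tested regulators with separate groups. Fhl2, too low to be tested, was at 0.0445 and 0.110 FPKM in shCtl against 0.163 and 0.552 FPKM in shCbx6. Myocd, the cofactor that drives smooth muscle differentiation, stayed at or under 0.0281 FPKM in all 4 libraries. Mkl1 and Mkl2, the cofactors that sense free actin, had log2 differences of 0.08 and -0.02, and their groups overlapped.

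Genes of the late smooth muscle program were scarce, since 7 of the 11 stayed under 1 FPKM in every library. Myh11, the smooth muscle myosin heavy chain, was at 0.0993 and 0.0933 FPKM in shCtl against 0.124 and 0.164 FPKM in shCbx6, and Mylk, the myosin light chain kinase, did not exceed 0.0477 FPKM. Ppp1r14a, an inhibitor of myosin phosphatase, was the only tested gene of the list with separate groups, and only just, at 4.62 and 8.397 FPKM in shCtl against 8.411 and 14.8 FPKM in shCbx6 (log2 difference 0.74, limma adjusted p = 0.490). Counting untested genes as well, 6 of the 11 were higher in both shCbx6 libraries than in both shCtl libraries (Myh11, Lmod1, Synpo2, Pgm5, Synm and Ppp1r14a), beside 18.9% of all genes tested, and none was lower in both. That share covers tested genes only, and of the 6 just Ppp1r14a was tested, so the gene sets are unlike. Cald1, a caldesmon that binds actin and myosin, was apart between the shCbx6 libraries, at 3.62 and 4.85 FPKM in shCtl, 3.44 FPKM in shCbx6 replicate 1 and 17.1 FPKM in replicate 2.

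**Figure D3:**
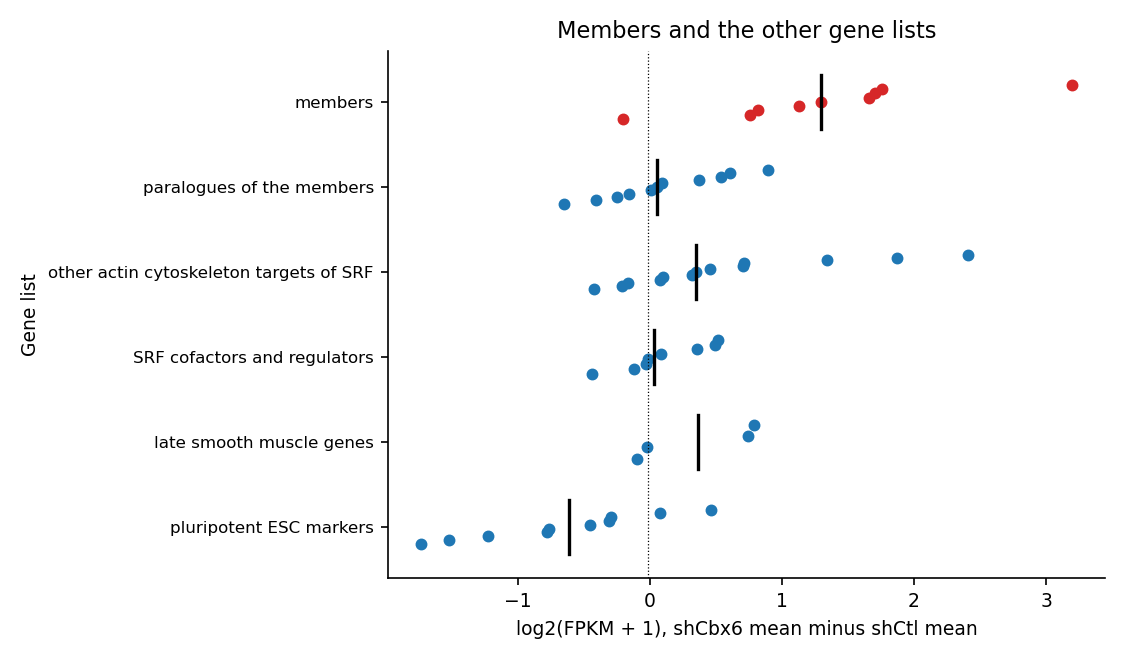
Difference of mean log2(FPKM + 1), shCbx6 minus shCtl, for each tested gene (points) of the members (top, red) and 5 other gene lists (blue), with the list median as a black bar and the median of all genes as a dotted line. The member median lies at 1.29, the medians of the 4 related lists lie between 0.03 and 0.36, and that of the ESC markers lies at -0.61. The members were chosen with this contrast known, so their median describes that choice.

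The genes with profiles nearest to Tagln were sought over the 4 libraries, each profile being log2(FPKM + 1) minus its shCtl mean and likeness being Euclidean distance, where smaller is closer. Members were left out of this search, and their own distances are given after the 5 nearest other genes. Igf2, a fetal growth factor, was closest at 0.63, with 0.173 and 0.359 FPKM in shCtl against 2.35 and 30.5 FPKM in shCbx6. Krt18 and Krt8, the paired keratins of simple epithelia, followed at 1.04 and 1.20. Krt8 was at 4.81 and 7.25 FPKM in shCtl and at 12.1 and 119 FPKM in shCbx6, and Krt18 at 3.66 and 6.91 against 13.2 and 122 FPKM. Next came Cyr61 at 1.23 and Pim2, a kinase gene, at 1.23 with 5.82 and 7.44 FPKM in shCtl against 36.6 and 82.0 FPKM in shCbx6. Among the members the smallest distances were 2.29 for Tpm1, 2.35 for Myl9 and 2.43 for Cnn2, and the largest was 4.96 for Tagln2.

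The peak lists were then read at each member, counting a peak that overlaps the gene or the 2.5 kb before its start by at least 1 bp. The rule did not use these positions to choose the members. CBX6 replicate 1, a list of 21865 peaks, had a peak at 6 of 10 members (Tagln2, Acta1, Cnn2, Tpm1, Tpm2 and Myl9), where 56.7% of 21149 genes with coordinates had one. CBX6 replicate 2, with 5103 peaks, had one at 3 (Acta1, Cnn1 and Tpm1), against 16.7% of genes. The CBX7 list, with 5081 peaks, had one at 4 (Acta1, Cnn1, Tpm1 and Tpm2), against 18% of genes, and the RING1B list, with 4180 peaks, at 2 (Tpm1 and Tpm2), against 16.2%. The members' shares in the CBX6 replicate 1 and RING1B lists were near the background, and the difference in the other lists amounts to 1 or 2 genes and was not tested.

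Tpm1 was the only member with a peak of all 4 lists. Its start was spanned by a CBX6 replicate 1 peak at chr9:66895916-66898036 (MACS score 272), a CBX6 replicate 2 peak at chr9:66895048-66897901 (score 974), a CBX7 peak at chr9:66894905-66898239 and a RING1B peak at chr9:66894854-66898239 (score 3100 for both). Scores are not on one scale between lists, but within its own list the Tpm1 peak scored higher than 94.6%, 88.3%, 91.5% and 87.3% of peaks. A score of exactly 3100 recurred in 403 CBX7 and 507 RING1B peaks, which cannot be ranked among themselves. The stretch common to all 4 peaks, chr9:66895916-66897901, was 1986 bp long and covered the start, the first bases of the gene and the upstream sequence printed above. CBX6 replicate 1 had 2 further peaks in Tpm1 introns, with scores of 67.9 and 65.4.

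Tpm2 had peaks over its start in 3 lists, CBX6 replicate 1 (score 64.7), CBX7 at chr4:43535915-43538197 (score 165) and RING1B at chr4:43536167-43538334 (score 229). The nearest CBX6 replicate 2 peak lay 38.4 kb from the start. All 3 scores were below the median of their lists, which was 95.3 for CBX6 replicate 1, 300.4 for CBX7 and 402 for RING1B.

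Cnn1 and Acta1 had peaks of CBX6 replicate 2 and CBX7 and none of RING1B. At Cnn1 the CBX6 replicate 2 peak, chr9:21903978-21905014 (score 85.2), was centred in an intron 771 bp after the start, and a CBX7 peak (score 68.5) covered the start. At Acta1 the peaks lay at the 3′ end of the gene, with scores of 73.4 in CBX6 replicate 1, 54.5 in CBX6 replicate 2 and 145 in CBX7, and none reached the start. The nearest RING1B peak was 109 kb from the start of Cnn1 and 776 kb from that of Acta1. Tagln2, Cnn2 and Myl9 had peaks in CBX6 replicate 1 alone, the largest list, with scores from 65.3 to 146.

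**Figure D4:**
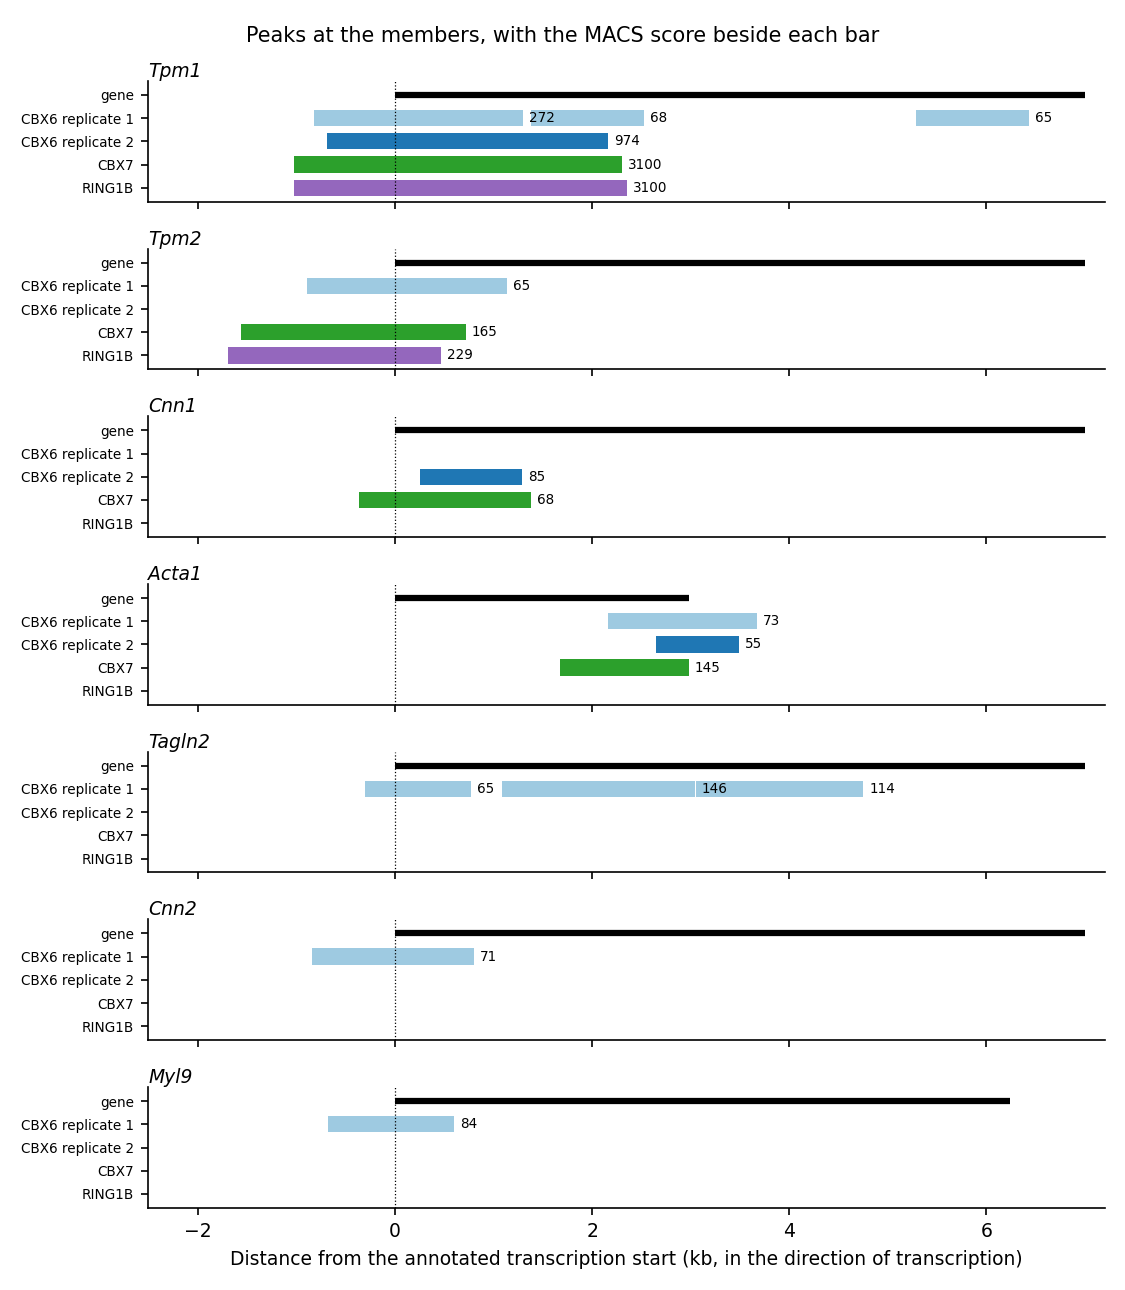
Peaks of the 4 lists at the 7 members that have any, drawn by distance from the annotated start in kb along the direction of transcription, with the gene as a black bar (cut at 7 kb) and the MACS score beside each peak. All 4 lists cover the Tpm1 start, 3 cover the Tpm2 start, and the Acta1 peaks lie at the end of the gene.

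Tagln, Acta2 and Actg2 had no peak in any list. The nearest to the start of Tagln lay 17.9 kb away in CBX6 replicate 1, 504 kb in CBX6 replicate 2, 333 kb in CBX7 and 504 kb in RING1B. For Acta2 the distances were 219, 219, 62.3 and 219 kb, and for Actg2 28.7, 78.4, 78.3 and 78.1 kb, in the same order of lists. No peak list of shCbx6 cells was used here, and reads that map to several places were discarded before peaks were called.

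Among the related lists, 10 of 11 paralogues with coordinates had a CBX6 replicate 1 peak (56.7% of all genes). So did 9 of 11 SRF cofactors and regulators, 12 of 14 other SRF targets and 9 of 11 late smooth muscle genes. Tpm4 was the only paralogue with a peak in CBX6 replicate 2 or CBX7, and Myl7 the only paralogue with one in RING1B. Of 11 SRF cofactors and regulators, 3 had a peak in each of CBX6 replicate 2, CBX7 and RING1B, Srf and Fhl2 in all of these. Of 14 other SRF targets, 3 had one in CBX6 replicate 2 (Tln1, Zyx and Cyr61) and 2 in CBX7 and in RING1B (Zyx and Cyr61). Of 11 late smooth muscle genes, 6 had peaks in both CBX7 and RING1B (Des, Synpo2, Mylk, Itga8, Pgm5 and Synm), beside 18% and 16.2% of all genes. Of the marker lists, 8 of 10 primitive endoderm, 2 of 10 fibroblast and 2 of 9 ESC markers had a peak in CBX7 and the same numbers in RING1B, and of 10 cardiac and skeletal muscle markers 2 had one in CBX7 and 3 in RING1B. In the promoter table, a CArG box was found in 4 of 11 paralogues (Actc1, Actg1, Myl6 and Myl7), 3 of 6 SRF regulators (Srf, Fhl1 and Fhl2), 2 of 12 other SRF targets (Vcl and Lima1) and 0 of 10 late smooth muscle genes, beside 1.63% of all promoters.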

How the data were processed

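RNA-seq was measured in 2 shCtl and 2 shCbx6 libraries and ChIP-seq peaks in 4 lists. The authors aligned paired RNA-seq reads to mm9 with TopHat, kept uniquely mapping reads and estimated FPKM with Cufflinks; the deposited table gives 1 FPKM per symbol and library, and its name calls the values RPKM. For ChIP-seq, the authors used Bowtie with unique hits and called peaks per sample with MACS (shift size 75 bp); the deposited score is the MACS score. Per the labels, DNA of the HA and CBX7 ChIPs and of the RING1B ChIP was prepared by different protocols.

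Of 23290 entries, 25 carry dates in place of symbols. Where a symbol had more than 1 entry, the one with the higher mean was kept, leaving 23288 symbols. From the FPKM, limma 3.58.1 (R 4.3.3; lmFit and eBayes with a trend, no replicate term, two-sided, Benjamini-Hochberg adjustment) was run on log2(FPKM + 1) over the 11592 genes that reached a group mean of 1 FPKM, so folds of low genes are understated on that scale. Ratios of single libraries used FPKM without a pseudocount. This fit was first tested on simulated data. Peaks were assigned with GENCODE coordinates on mm9, where 21149 symbols matched by name, in place of the RefSeq models of the authors, with Python 3.11.15 and pandas 2.3.3 (figures with matplotlib 3.10.9). Promoters came from RefSeq, GRCm38.p6.

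The members and lists were chosen with earlier results of these data known. Named are all members, Cbx6, of each related list the genes called or, with none called, up to 2 with the highest and 2 with the lowest difference among tested genes with separate groups, and the 5 nearest to Tagln. Genes of the marker lists, Fhl2, Zyx, Lima1, Cald1, Actb, Myl12a, Actc1, Myocd, Mkl1, Mkl2, Myh11, Mylk and other untested smooth muscle genes were named after their values were seen. A further gene list is not reported here. Alternatives covered the pseudocount, the filter, library scaling, a replicate block, each library left out, the fold threshold, the peak score and the window.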

Additional observations from a re-analysis of the deposited data

How the results depend on the processing

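Depth is unknown, and with 2 libraries a group the calls were few and moved with the setting. limma called 11 genes as reported, 17 with a pseudocount of 0.1 and 26 without the filter on low FPKM. Leaving out 1 library gave 19 to 398 calls: 22 without shCtl replicate 1, 19 without shCtl replicate 2, 398 without shCbx6 replicate 1 and 35 without shCbx6 replicate 2, with the lone library of a group assumed to vary like the others. The labels say nothing of a pairing by replicate number, and a fit with a replicate block gave 388 calls. Over the 11592 genes tested, the difference between the shCtl replicates correlated at 0.27 with that between the shCbx6 replicates. Of the 4 related lists, 0 genes were called as reported, 3 with the replicate block (Ctgf, Lima1 and Ppp1r14a), and 0 to 5 with a library left out, the 5 being Cald1, Ctgf, Cyr61, Tpm4 and Zyx without shCbx6 replicate 1. At a peak score of at least 100, members with a peak fell from 6 to 2 of 10 in CBX6 replicate 1, where the share of all genes was 38.1%, and from 3 to 1 of 10 in CBX6 replicate 2, where it was 11.5%. The log2 difference of Tagln2 ranged from -0.74 to 0.33 with a library left out, turning positive without shCbx6 replicate 1, and those of Cnn1 and Myl9 grew to 1.61 and 3.49 with a pseudocount of 0.1. The other 8 members with a difference kept a positive sign under every alternative run. In all 8, both shCbx6 libraries lay above both shCtl libraries. Leaving out a library or changing the pseudocount could therefore not reverse the sign. Leaving out 1 library moved Tagln between 1.88 and 4.51, Acta1 between 0.33 and 1.94, Acta2 between 0.69 and 1.90, Cnn2 between 1.06 and 2.26, Myl9 between 1.13 and 2.29, Tpm1 between 1.17 and 2.35, Tpm2 between 0.33 and 1.18 and Cnn1 between 0.57 and 1.06, with the low ends without shCbx6 replicate 2 and the high ends without shCbx6 replicate 1. The cause was not tested.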
